A study of Rattus norvegicus with 28 samples.

Results

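The genes described here encode the cytosolic HSP70 and HSP90 chaperones, their J-domain and exchange partners, and the mitochondrial chaperonin. They were 10 genes fixed by name (Hspa8, Hspa4, Hsph1, Dnajb1, Dnajb4, Dnaja1, Hsp90aa1, Hsp90ab1, Hspd1 and Hspe1) and found by their symbol in a table of 11383 genes. Of these, 8 had a row and all 8 passed the filter on low values. Hspa8 and Hsp90aa1 had none and were not analysed here. The data came from cardiomyocytes, the contractile cells of the heart, taken from adult rats aged 6 to 8 months, kept in culture for 48 hours. RNA was sequenced from 3 libraries of cells given a null adenovirus and 3 of cells given an adenovirus that carries a short hairpin RNA against desmin (shDesmin), and the other 22 of the 28 samples were Lamin B chromatin immunoprecipitation or input libraries, 10 of them re-runs. The treatment text speaks of a scrambled control, whereas the RNA controls are labelled null, and whether the null virus carries an shRNA is not stated. Desmin is the main intermediate filament of heart muscle, and its transcript Des stood at 12.57 ± 0.03 log2 CPM in null and 9.18 ± 0.12 in shDesmin libraries (SD, n = 3 each), a 10.5-fold fall (adjusted p = 7.3e-09, limma).

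Chaperones keep other proteins from clumping while they fold. HSP70 grips exposed stretches of an unfolded chain, a J-domain protein (HSP40) delivers the chain and makes HSP70 close on it, and an exchange factor, among them the HSP110 proteins, makes it let go. HSP90 takes over later and matures kinases, receptors and, in muscle, the myosin motor. Inside mitochondria, HSP60 forms a barrel that encloses a chain and HSP10 forms its lid. Many of these genes are switched on by heat shock factor 1 (HSF1), which binds heat shock elements, runs of the letters GAA and TTC in alternation 2 bases apart. In striated muscle the chaperones guard the crowded lattice of contractile filaments.

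The stretches before the transcription starts of 4 members are shown because they carry the letters of a heat shock element and belong to genes that went in opposite directions. They are 250 bases of the GRCr8 build, from RefSeq, on the strand of the gene and up to the base before the start, at chr19:41431142-41431391 on the minus strand for Dnajb1, chr12:10427118-10427367 on the plus strand for Hsph1, chr5:60638154-60638403 on the plus strand for Dnaja1 and chr9:64084077-64084326 on the plus strand for Hspe1. Capitals mark each match to GAANNTTC or TTCNNGAA, which read the same on both strands.
Dnajb1: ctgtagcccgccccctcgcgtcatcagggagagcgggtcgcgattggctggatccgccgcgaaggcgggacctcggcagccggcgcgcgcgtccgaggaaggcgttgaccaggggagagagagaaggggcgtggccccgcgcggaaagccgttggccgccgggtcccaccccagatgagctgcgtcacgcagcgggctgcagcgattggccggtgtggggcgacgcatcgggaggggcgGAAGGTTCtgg
Hsph1: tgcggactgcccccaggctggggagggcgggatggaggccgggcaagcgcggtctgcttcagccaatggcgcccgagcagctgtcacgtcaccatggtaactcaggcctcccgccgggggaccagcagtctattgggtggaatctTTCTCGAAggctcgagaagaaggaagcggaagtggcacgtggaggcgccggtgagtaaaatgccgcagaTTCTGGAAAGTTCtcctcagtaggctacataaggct
Dnaja1: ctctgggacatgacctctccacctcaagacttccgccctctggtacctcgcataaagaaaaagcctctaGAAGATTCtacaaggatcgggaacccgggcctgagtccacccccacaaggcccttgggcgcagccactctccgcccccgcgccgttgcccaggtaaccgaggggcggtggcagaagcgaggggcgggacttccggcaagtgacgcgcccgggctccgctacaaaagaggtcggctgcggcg
Hspe1: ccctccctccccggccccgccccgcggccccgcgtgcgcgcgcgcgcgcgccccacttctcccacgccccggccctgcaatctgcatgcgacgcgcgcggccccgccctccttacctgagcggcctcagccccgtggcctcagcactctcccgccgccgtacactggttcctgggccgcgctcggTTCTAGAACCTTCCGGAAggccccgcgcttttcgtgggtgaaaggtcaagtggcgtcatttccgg

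In Hsph1 and Hspe1 the units ran on into a match to the 3-unit motif (GAANNTTC followed directly by NNGAA, searched on both strands), which overlaps the 2-unit matches within it. That match began 36 bases before the start in Hsph1, and in Hspe1 2 overlapping matches began 65 and 60 bases before it. Dnajb1 had a single GAANNTTC match 11 bases before its start and Dnaja1 a single one 181 bases before. Among 21757 windows of protein-coding genes, 12.6% held at least one 2-unit match and 0.464% the 3-unit motif. Hspd1 and Hspe1 are neighbours read in opposite directions, and their windows share 211 bases. The same stretch with 2 overlapping 3-unit matches holds all the matches in both windows. For Hspd1 these 3-unit matches began 242 and 237 bases before the start, much farther than for Hspe1. The windows of Hspa4 and Hsp90ab1 held no 2-unit match, which says only that these letters are not in that window. Of the members with RNA values, 7 had a RefSeq window, and Dnajb4 had none in the table used.

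The RNA libraries held 8724543 to 10908458 reads over the listed genes. Values are log2 CPM, a read count scaled to a common library size that the authors adjusted, on a log2 scale. Across all 11033 genes tested, 27.5% were called higher with shDesmin and 31.4% lower (adjusted p under 0.05 by limma), so a call by itself was common. The median log2 fold of all genes was -0.04. The median shift of a gene's log2 fold was -0.71 when libraries were scaled to their totals and -0.54 with totals without mitochondrial genes. It was 0.18 with median centring and 0.15 with quantile normalization. Mitochondrially encoded genes took 24.7 to 34.5% of reads in null libraries and 35.0 to 39.1% in shDesmin libraries. Whether the 3 libraries per group are separate rats or dishes is not stated in the labels, so the p-values measure the spread between these libraries, and in bulk RNA fewer cells of a type and less RNA per cell cannot be told apart. Cardiomyocyte markers were abundant and differed between groups. Of 10 such markers 9 had a row and all 9 were called higher, and their summed level ran from 20300 to 24800 CPM in null and from 66300 to 78200 CPM in shDesmin libraries. Summed levels were 2.83 to 9.67 and 15.2 to 24.5 CPM for 3 of 8 fibroblast markers, 133 to 218 and 249 to 369 CPM for 7 of 8 endothelial markers, and 231 to 388 and 531 to 876 CPM for 6 of 8 pericyte and smooth muscle markers. Only Cd68 and Csf1r were listed of 8 macrophage and leukocyte markers, at 16.0 to 17.0 CPM in null and 2.74 to 3.64 CPM in shDesmin libraries. None of these markers was at 0 reads in any library, and their part in the chaperone results was not tested.

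The cytosolic co-chaperones Dnajb1, Hsph1 and Dnaja1 fell in shDesmin RNA, the mitochondrial pair Hspd1 and Hspe1 and the HSP90 gene Hsp90ab1 were higher, and Hspa4 and Dnajb4 were not called. That is 3 of 8 members higher and 3 of 8 lower, beside 27.5% and 31.4% of all genes tested. The shares were thus near the background. Whether the split by member is particular to these genes was not tested. In 6 of the 8 the libraries of the groups did not overlap, as in 64.9% of all genes. The falls of Dnajb1 and Hsph1 kept their direction and call under every scaling run, whereas the log2 folds of Hsp90ab1 and Hspd1 turned negative under both kinds of library totals, and that of Hsp90ab1 also under quantile normalization. Hspe1 was not called under library totals (0.02) or totals without mitochondrial genes (0.18). Dnaja1 was not called with median centring (-0.25).

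**Figure D1:**
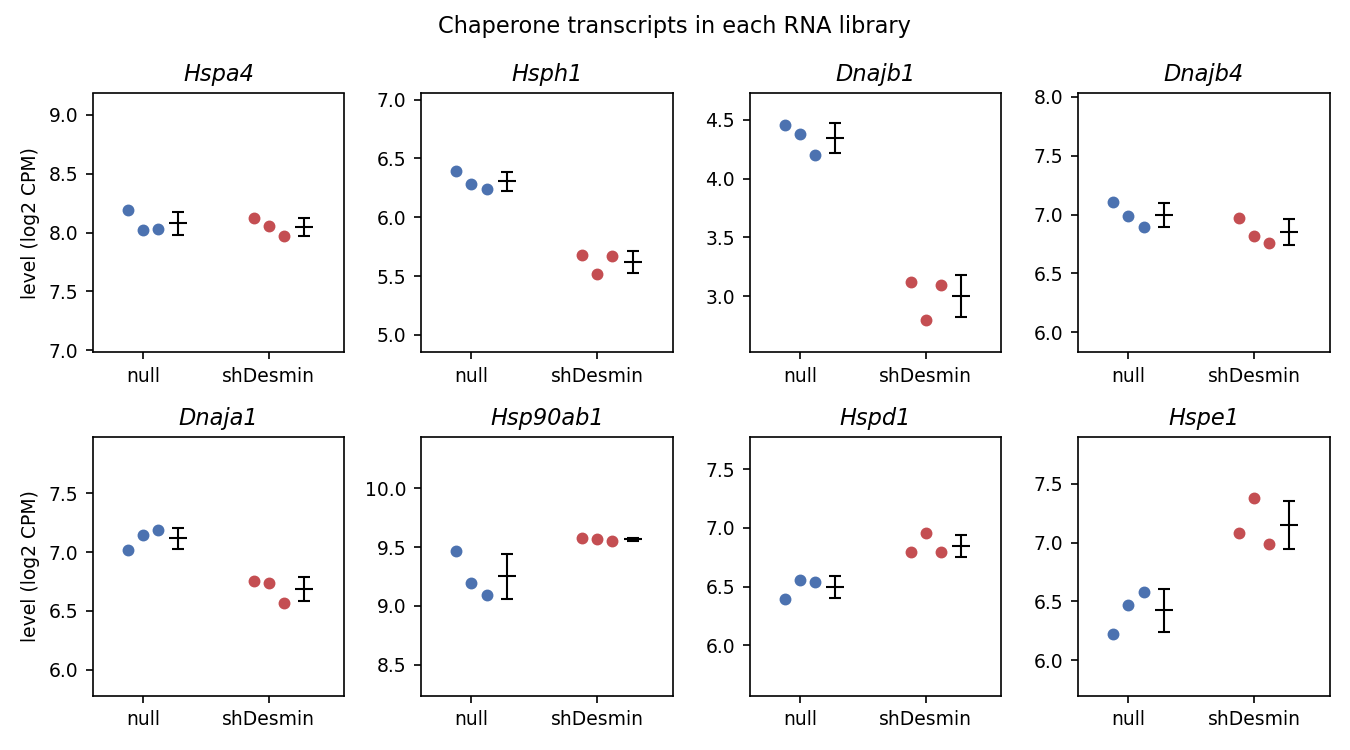
Level of each of the 8 measured chaperone transcripts in log2 CPM (vertical axis, every panel spanning the same range) in the 3 null libraries (blue) and the 3 shDesmin libraries (red), with the group mean and SD as a black bar. Dnajb1, Hsph1 and Dnaja1 lie lower in all 3 shDesmin libraries, Hsp90ab1, Hspd1 and Hspe1 lie higher at this scaling (Hsp90ab1 and Hspd1 lie lower under library totals), and Hspa4 and Dnajb4 overlap.

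The HSP110 exchange factors differed from each other. Hsph1 (ENSRNOG00000000902, rn6 chromosome 12, 6322668 to 6341902), a heat-inducible HSP110, stood at 6.39, 6.28 and 6.24 log2 CPM in the null libraries and at 5.67, 5.51 and 5.67 in the shDesmin libraries. All shDesmin libraries lay below all null libraries. The fall was 1.61-fold (log2 fold -0.68, SE 0.10, limma adjusted p = 0.00013), with 861 to 1093 reads in null and 306 to 409 in shDesmin libraries. Hspa4 (ENSRNOG00000016596, chromosome 10, 38601624 to 38642397), the HSP110 known as Apg-2, stood at 8.19, 8.02 and 8.03 log2 CPM in null and at 8.12, 8.05 and 7.97 in shDesmin libraries. These groups overlapped, and the log2 fold of -0.03 (95% interval -0.23 to 0.17, adjusted p = 0.78) was not called. Under library totals Hspa4 was called lower as well (log2 fold -0.74, adjusted p = 0.00050), and under quantile normalization (-0.51).

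The ratio of 2 transcripts within a library does not change when a library is scaled by a single factor. The log2 ratio of Hsph1 over Hspa4 was -1.80, -1.74 and -1.79 in null libraries and -2.45, -2.54 and -2.30 in shDesmin libraries. The groups did not overlap, and the mean difference of -0.65 was larger than the SD among null (0.03) or shDesmin libraries (0.12). The permutation test used for ratios was exact and two-sided and gave p = 0.1, the smallest p that 3 libraries against 3 allow, so no ratio here can pass 0.05. Quantile normalization, which changes genes by their rank within a library, left a difference of -0.30.

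J-domain proteins feed clients to HSP70. Among the members of this kind, Dnajb1 and Dnaja1 fell and Dnajb4 was not called, whereas other J-domain genes went both ways (below). Dnajb1 (ENSRNOG00000021824, chromosome 19, 24747178 to 24750919), the main heat-inducible HSP40 of the cytosol, stood at 4.45, 4.38 and 4.20 log2 CPM in null libraries and at 3.12, 2.79 and 3.09 in shDesmin libraries. Its groups lay more than 1 log2 unit apart. The fall was 2.54-fold (log2 fold -1.35, SE 0.16, adjusted p = 2.6e-05), the largest among the 8 measured members, and only 8.47% of all tested genes had a lower log2 fold. It rests on 230 to 285 reads in null libraries and 46 to 69 in shDesmin libraries.

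Dnaja1 (ENSRNOG00000007029, chromosome 5, 57028467 to 57039378), an HSP40 of another class that carries a zinc-binding region, stood at 7.02, 7.14 and 7.19 log2 CPM in null and at 6.75, 6.73 and 6.57 in shDesmin libraries. The groups did not overlap, and the fall was 1.35-fold (log2 fold -0.43, SE 0.09, adjusted p = 0.0022). With each library centred on its median it was no longer called (log2 fold -0.25, adjusted p = 0.054). Dnajb4 (ENSRNOG00000013011, chromosome 2, 257394818 to 257425242), a close relative of Dnajb1 that is prominent in muscle, stood at 7.10, 6.99 and 6.89 in null and at 6.97, 6.82 and 6.75 in shDesmin libraries. Its groups overlapped, and the log2 fold of -0.15 (95% interval -0.36 to 0.07, adjusted p = 0.21) was not called. Dnajb4 was called lower under library totals (-0.86, adjusted p = 0.00040), totals without mitochondrial genes (-0.69) and quantile normalization (-0.41).

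The log2 ratio of Dnajb4 over Dnajb1 was 2.65, 2.61 and 2.69 in null libraries and 3.85, 4.03 and 3.66 in shDesmin libraries, a difference of 1.20 (2.29-fold, SD 0.04 and 0.18) with no overlap (exact permutation p = 0.1). The log2 ratio of Dnajb1 over Dnaja1 likewise moved from -2.77 ± 0.21 to -3.68 ± 0.24 (SD, n = 3 each, exact permutation p = 0.1). In both ratios every shDesmin library lay toward less Dnajb1. Under quantile normalization the differences were 0.75 and -0.47.

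**Figure D2:**
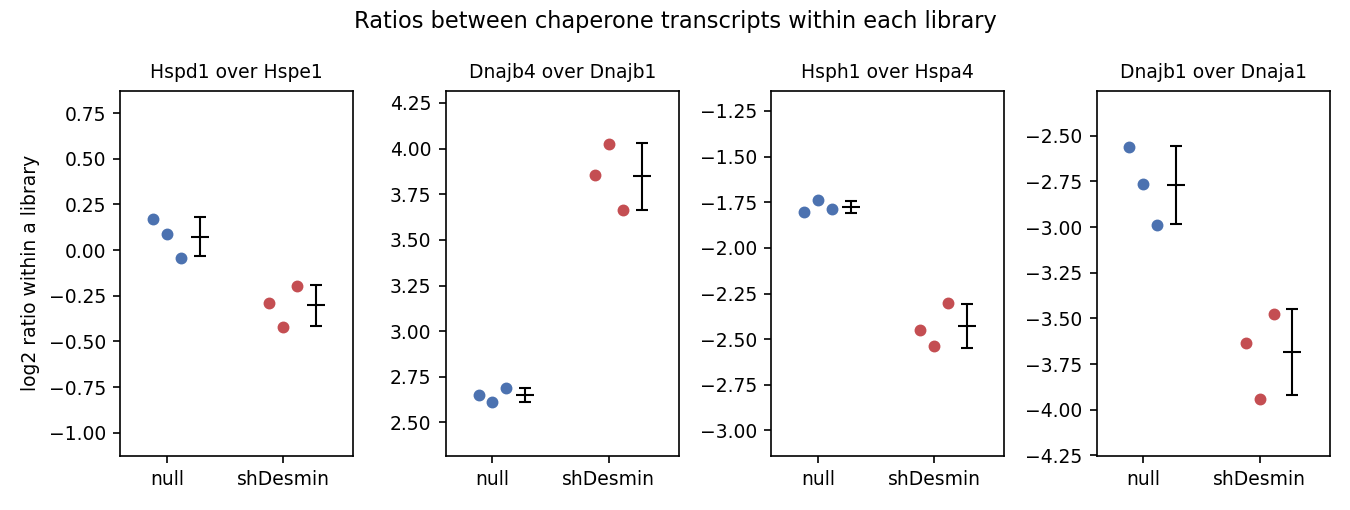
Log2 ratio between pairs of chaperone transcripts within each library (vertical axis), for 3 null (blue) and 3 shDesmin (red) libraries, with mean and SD in black. In all 4 pairs the groups are apart, with Dnajb4 over Dnajb1 higher by 1.20 in shDesmin libraries and Hsph1 over Hspa4 lower (-0.65).

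Hsp90ab1 (ENSRNOG00000019834, chromosome 9, 17817721 to 17823243), the constitutive cytosolic HSP90, stood at 9.46, 9.20 and 9.10 log2 CPM in null libraries and at 9.58, 9.57 and 9.55 in shDesmin libraries. The shDesmin libraries were nearly level (SD 0.02) and lay just above the highest null library. The rise was 1.24-fold (log2 fold 0.31, SE 0.11, adjusted p = 0.024). This call was the least firm of the 6. It was lost without null replicate 2 (adjusted p = 0.090), null replicate 3 (0.099), shDesmin replicate 1 (0.066), shDesmin replicate 2 (0.060) or shDesmin replicate 3 (0.061), and without the variance trend (0.078). Hsp90ab1 was called lower under library totals (log2 fold -0.40) and under quantile normalization (-0.49). RefSeq names 23 pseudogenes of Hsp90ab1, so its reads may be split among copies, and the counting rule for such reads is not given in the sources used here.

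Both subunits of the mitochondrial chaperonin rose at the deposited scaling, HSP10 more than HSP60, though Hspd1 turned negative under library totals (log2 fold -0.36) and Hspe1 was then at 0.02. Hspe1 (ENSRNOG00000051624, chromosome 9, 61692154 to 61694599), the HSP10 lid, stood at 6.22, 6.47 and 6.58 log2 CPM in null and at 7.08, 7.38 and 6.99 in shDesmin libraries. All shDesmin libraries lay above all null libraries, a 1.65-fold rise (log2 fold 0.73, SE 0.12, adjusted p = 0.00046). Hspd1 (ENSRNOG00000014525, chromosome 9, 61680530 to 61690956), the HSP60 barrel, stood at 6.39, 6.56 and 6.54 in null and at 6.79, 6.95 and 6.79 in shDesmin libraries. These groups were also apart, and the rise was 1.27-fold (log2 fold 0.35, SE 0.09, adjusted p = 0.0078). Under quantile normalization Hspd1 was not called (0.13, adjusted p = 0.23). Both genes lie on one chromosome, 1197 bases apart on rn6.

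The log2 ratio of Hspd1 over Hspe1 was 0.17, 0.09 and -0.04 in null and -0.29, -0.42 and -0.20 in shDesmin libraries. The groups did not overlap, and the difference of -0.38 exceeded the SD of 0.11 in both (exact permutation p = 0.1). The lid transcript was 1.30-fold higher relative to the barrel transcript in shDesmin libraries. In null replicate 1 both subunits were at their lowest, and that library also had the smallest share of mitochondrially encoded reads (24.7%). Hspd1 and Hspe1 were at their highest in shDesmin replicate 2, with a share of 39.1%. In shDesmin replicate 3, with a share of 39.0%, both were at the lowest of the shDesmin libraries (6.79 and 6.99). The part of this share in the levels of Hspd1 and Hspe1 was not tested. RefSeq names 20 pseudogenes of Hspd1, 4 of Dnaja1 and 1 of Hspe1, and none of Dnajb1, Dnajb4, Hspa4 or Hsph1.

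Set against each other in all 28 pairs, the members gave differences that no scaling of a library by a single factor can change. In 24 pairs the ratios of the groups did not overlap, and each of these had exact permutation p = 0.1 (0.12 after Benjamini-Hochberg adjustment over the 28). The 28 pairs reuse the same genes, so they are not independent of each other. Of all genes tested singly, 64.9% had groups that did not overlap. The share among pairs of other genes was not tested, so the count is not shown to be particular to the members. The widest of the 28 was Dnajb1 over Hspe1, a 4.20-fold difference. Its log2 ratio was -1.77, -2.09 and -2.38 in null and -3.97, -4.58 and -3.90 in shDesmin libraries. Hsph1 over Hspd1 moved 2.05-fold and Dnaja1 over Hspd1 1.72-fold, in each case toward the mitochondrial gene. The 4 pairs that overlapped were Hsph1 and Dnaja1, Dnajb4 and Dnaja1, Hsp90ab1 and Hspd1, and Hsp90ab1 and Hspe1. In the order of folds, Hsph1 and Dnaja1, Dnaja1 and Dnajb4, and Hsp90ab1 and Hspd1 were thus neighbours that did not separate, whereas Hspd1 and Hspe1 did.

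**Figure D3:**
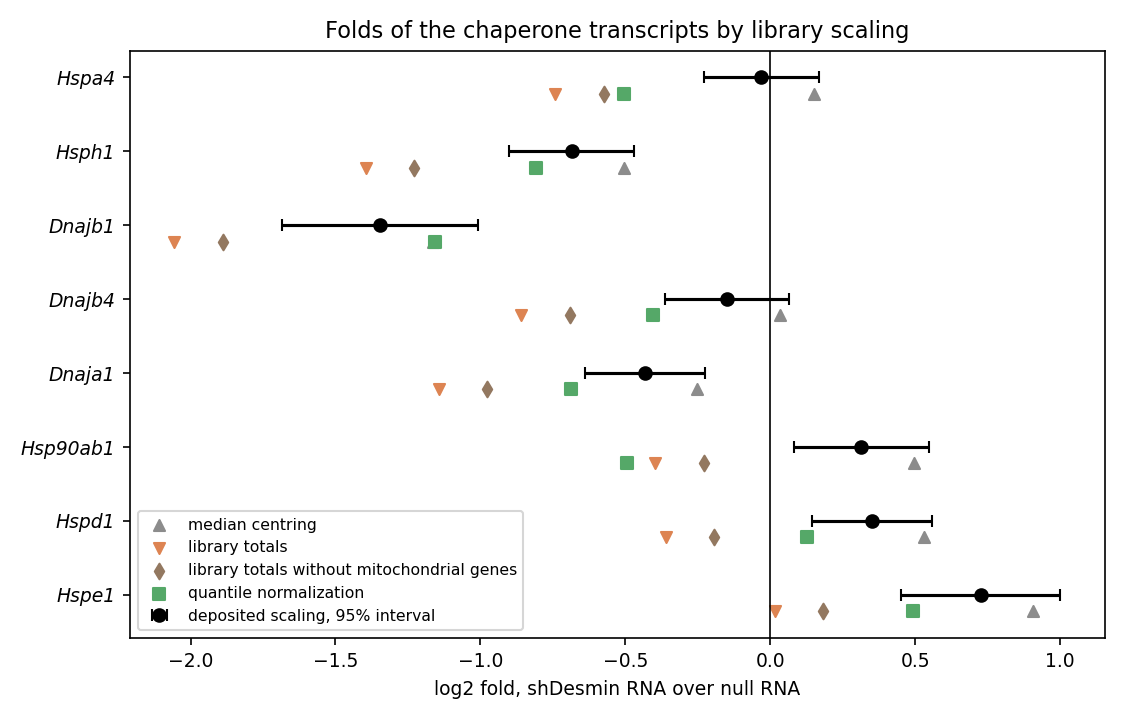
Log2 fold of each chaperone transcript, shDesmin over null RNA (horizontal axis), at the deposited scaling (black, 95% interval) and under 4 other library scalings (symbols). Dnajb1, Hsph1 and Dnaja1 stay below 0 throughout, whereas Hsp90ab1 and Hspd1 cross 0 under library totals and Hsp90ab1 also under quantile normalization.

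The split between higher and lower members depended on the scaling between libraries. Under library totals 7 of the 8 were called lower and none higher, beside 62.5% of all genes called lower, and Hspe1 was the one not called. Under quantile normalization 6 were called lower and 1 higher, where 28.9% of all genes were called lower. Folds also differed by level. The highest octile of genes by mean level, which holds 6 of the 8 members, had a median log2 fold of 0.41. Hspe1 lay above that median, Hspd1 and Hsp90ab1 just below it, and Dnaja1, Dnajb4 and Hspa4 further below.

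The wider chaperone network was given by 6 lists of partner genes, of which 104 of 112 had a row. In all, 42 of 104 tested rose (40.4%) and 21 fell (20.2%), beside 27.5% higher and 31.4% lower of all genes, with a median log2 fold of 0.15 beside -0.04. Over all genes the median was 0.11 in octile 7 by mean level and 0.41 in octile 8, the highest. The partners were not matched to genes of like level, so whether their excess is particular to them was not tested. Under library totals 6 were called higher and 62 lower (59.6%), near the 62.5% of all genes called lower there.

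**Figure D4:**
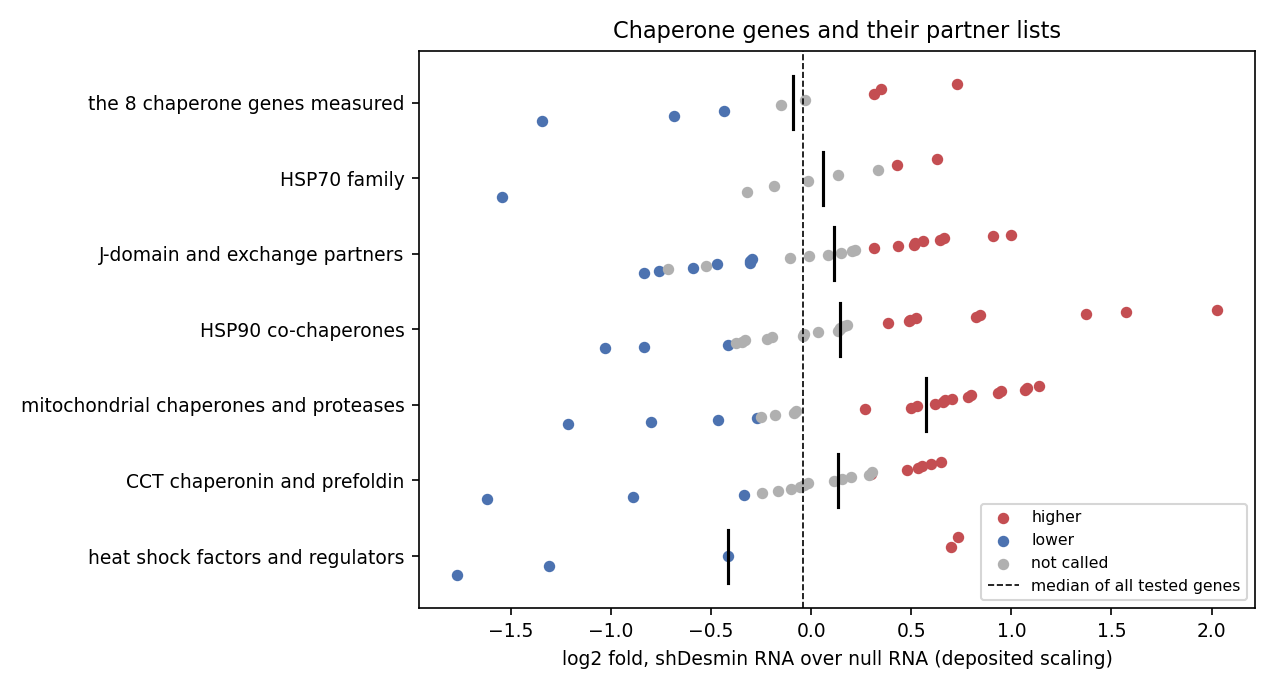
Log2 fold, shDesmin over null RNA, of the 8 chaperone genes and of each tested gene in 6 partner lists (horizontal axis, deposited scaling), coloured by limma call, with list medians as black bars and the median of all genes dashed. Mitochondrial chaperones and proteases have the highest list median, 0.57 (-0.14 under library totals), and heat shock factors the lowest, -0.42.

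Of 8 other HSP70 family genes 2 rose (25.0%, beside 27.5% of all genes) and 1 fell (12.5%, beside 31.4%), with a median log2 fold of 0.06. Hspa1l, an HSP70 best known from testis, fell 2.92-fold, with 4.21 ± 0.08 log2 CPM in null and 2.66 ± 0.12 in shDesmin libraries (SD, n = 3, adjusted p = 7.8e-06). Hspa4l, the third HSP110, rose 1.55-fold (adjusted p = 0.0034) and Hspa13, an HSP70-like protein of the secretory pathway, by 0.43 on the log2 scale (adjusted p = 0.024), but both were negative under library totals (-0.08 and -0.28). The call of Hspa13 was lost without null replicate 2 or 3 (adjusted p = 0.093 and 0.066), without shDesmin replicate 1 or 2 (0.10 and 0.060) and without the variance trend (0.056). Hspa1b, a stress-inducible HSP70 named here after its values were seen, was low and variable, at 2.36 ± 0.54 log2 CPM in null and 2.18 ± 0.38 in shDesmin libraries (SD, n = 3), and was not called (adjusted p = 0.61 by limma). Hspa1b has a near-identical copy, so its reads are uncertain.

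Among 24 further J-domain and exchange partners 9 rose (37.5%) and 7 fell (29.2%), the latter near the 31.4% of all genes called lower, with a median log2 fold of 0.12. The counts were 0 higher and 13 lower under library totals (54.2% lower, beside 62.5% of all genes). Bag2, an exchange factor of the BAG family, fell from 6.62 ± 0.03 to 5.86 ± 0.06 log2 CPM (SD, n = 3, adjusted p = 3.0e-05). Dnajc27, a small GTPase with a J domain, rose by 0.91 on the log2 scale, Dnajc8, found with the splicing machinery, by 0.64 and Dnajc21, which acts in ribosome assembly, by 0.56. Dnajc8 and Dnajc21 were at -0.07 and -0.15 under library totals, and Dnajc27 was not called there (0.20, limma adjusted p = 0.33). Relatives of the J-domain members, named after their values were seen, went both ways. Dnaja2 (0.44), Dnaja4 (0.51) and Dnajb6 (0.31) were called higher, and Dnajb2 (-0.30), Dnajb5 (-0.30) and Dnajb12 (-0.31) lower. The shift of -0.71 under library totals was larger than each of these rises.

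Of 25 partners of HSP90, 9 rose (36.0%) and 3 fell (12.0%), beside 27.5% and 31.4% of all genes, with a median log2 fold of 0.14. Itgb1bp2, the muscle co-chaperone melusin, rose 4.07-fold, with 5.54 ± 0.20 log2 CPM in null and 7.57 ± 0.15 in shDesmin libraries (SD, n = 3, adjusted p = 2.8e-07). Smyd1, a muscle methyltransferase that works with HSP90 on myosin, rose by 1.57 on the log2 scale and Cdc37, which brings kinases to HSP90, by 0.85. Fkbp4, an immunophilin that docks on HSP90, rose 2.59-fold, with 6.74 ± 0.06 log2 CPM in null and 8.11 ± 0.16 in shDesmin libraries (SD, n = 3, adjusted p = 1.0e-06). These 4 stayed above 0 under every scaling run, though Cdc37 was not called under library totals (0.13).

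Of 22 mitochondrial chaperones and proteases, 14 rose (63.6%) and 4 fell (18.2%) at the deposited scaling, beside 27.5% and 31.4% of all genes, with a median log2 fold of 0.57. Under library totals 3 were called higher and 9 lower (40.9%, beside 62.5% of all genes), and the median was -0.14. Clpx, the unfoldase of a matrix protease, rose by 1.14 on the log2 scale (adjusted p = 3.2e-06), Dnajc19, a J-domain protein of the inner membrane, by 0.93 and Trap1, the HSP90 of mitochondria, by 0.78. Afg3l2, a subunit of an inner membrane protease, fell from 8.05 ± 0.08 to 6.84 ± 0.14 log2 CPM (SD, n = 3, adjusted p = 1.9e-06). Dnajc19 and Trap1 stood at 0.22 and 0.07 under library totals, without a call.

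The mitochondrial HSP70 gene Hspa9 and its exchange factor Grpel1 were named after their values were seen, since they hand clients to the chaperonin. Hspa9 stood at 8.70, 7.92 and 7.84 log2 CPM in null and at 9.38, 9.16 and 9.15 in shDesmin libraries. Null replicate 1 was the highest null library for Hspa9 and the lowest for Hspd1 and Hspe1. Hspa9 rose 2.11-fold (adjusted p = 0.00048) and Grpel1 by 0.95 on the log2 scale (adjusted p = 3.5e-05), and Hspa9 was not called under library totals (0.37) or quantile normalization (0.44).

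The cytosolic chaperonin CCT folds actin and tubulin. Of its 8 ring subunits, 7 were not called at the deposited scaling, with log2 folds of -0.17 to 0.15, and Tcp1 rose (0.30, adjusted p = 0.017). Tcp1, named after its values were seen, was called lower under library totals (-0.41) and lost its call without null replicate 2 (adjusted p = 0.068) or shDesmin replicate 1 (0.054) and under quantile normalization (0.22, adjusted p = 0.063). Prefoldin, which carries chains to CCT, had 3 of 6 subunits higher and none lower at the deposited scaling, beside 27.5% and 31.4% of all genes. These were Vbp1 (0.65, or -0.06 under library totals) and, named after their values were seen, Pfdn1 (0.54) and Pfdn5 (0.48). All 3 rises were smaller than the shift of -0.71 under library totals. Of 4 tubulin cofactors, which finish the tubulin dimer, Tbcc fell 3.07-fold, with 5.26 ± 0.13 log2 CPM in null and 3.64 ± 0.07 in shDesmin libraries (SD, n = 3, adjusted p = 1.4e-06), and Tbce by 0.89 on the log2 scale. Tbca, named after its values were seen, rose by 0.55 (adjusted p = 0.012), and Tbcd was not called (0.20, adjusted p = 0.17). Library totals moved each log2 fold by -0.71, more than the rise of Tbca. Pdcl3, a phosducin-like modulator of CCT, rose by 0.60 (-0.11 under library totals). The whole list had 6 of 20 higher (30.0%, near the 27.5% of all genes) and 3 lower (15.0%, beside 31.4%) at the deposited scaling. Under library totals 0 were called higher and 15 lower (75.0%, beside 62.5% of all genes). Quantile normalization gave 3 higher and 9 lower (45.0%, beside 28.9% of all genes), with a median log2 fold of -0.13.

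Of 5 heat shock factors and regulators, which act on chaperone genes, 2 rose and 3 fell, beside 27.5% and 31.4% of all genes. Hsf1 stood at 5.58, 5.72 and 5.74 log2 CPM in null and at 5.14, 5.28 and 5.36 in shDesmin libraries, below every null library in each case. It fell by 0.42 on the log2 scale (SE 0.11, adjusted p = 0.0058) and was not called with median centring (-0.24, adjusted p = 0.085). Hsf2, a second factor that can pair with HSF1, rose from 5.20 ± 0.11 to 5.90 ± 0.10 log2 CPM (SD, n = 3, adjusted p = 0.00019), but was at -0.01 under library totals. Hsbp1, which binds HSF1 and restrains it, rose by 0.73 (adjusted p = 7.3e-05), or 0.02 under library totals. Hsf4, known from the lens, fell by 1.31, and the scarce Hsf2bp by 1.77, which was lost without null replicate 1 (adjusted p = 0.053).

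The letters of the heat shock element stood before the starts of Dnajb1, Hsph1 and Dnaja1, which fell, and of Hspd1 and Hspe1, which rose at the deposited scaling (Hspd1 was negative under library totals). Of 32 tested genes whose window holds the 3-unit motif, 3 of them members, 25.0% were called higher and 37.5% lower, with a median log2 fold of -0.37. Of all 8582 tested genes with a window, 27.0% were called higher and 32.3% lower, with a median of -0.06. Among 860 with a 2-unit match these shares were 25.0% and 34.1%.

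By distance between mean-centred levels over the 6 libraries, the genes most like Dnajb1 among 6799 candidates were Cited2 (distance 0.12 log2 units), Zscan21 (0.13), Tymp (0.14), Tacc2 (0.15) and Cic (0.15). All 5 were called lower, with log2 folds of -1.27 to -1.39. The distance takes in the difference between groups, so the folds of the nearest genes follow from how they were chosen. Those nearest to the mean of the members were Tmed10, Trim28, Tfcp2, Nuak1 and Fkbp1a, none of them called. Among the members the nearest pair was Hspa4 with Dnajb4 (0.17), and the farthest was Dnajb1 with Hspe1 (2.63).

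None of the 8 members overlapped a lamina-associated domain (LAD) of the scrambled control cells. By the stricter measure of 0.5 or more of a gene's length, 3.96% of tested genes lay in one. Finding none among 8 is near that share. The distance of the members to the nearest LAD ran from 270 kilobases for Dnaja1 to 3064 kilobases for Hsp90ab1, on rn6.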

How the data were processed

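The authors' deposited RNA table holds log2 values. Raised back from log2, 100% of them were a whole number of reads plus 0.5 (within 0.001) times one step per library. They are thus log2 CPM on the authors' adjusted library sizes, after a constant of 5.70 was taken off. Per the submitters' processing notes, the tools were STAR 2.6.0c, Trimmomatic 0.32, limma, edgeR and featureCounts, and the builds rn6 and hg19. The RNA table gives rat genes, and strand use in counting is not given in the sources used here. The deposited comparison table gives a signed fold, a t score and p-values, per the file headers, and served as an alternative. LAD intervals come from 3 pooled replicates, per the series' design text.

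A gene was tested if it exceeded 0 log2 CPM in 3 or more libraries (11033 genes). The fit was limma 3.58.1 (R 4.3.3) with group as its one term and a mean-variance trend, two-sided, with Benjamini-Hochberg adjustment and a threshold of 0.05. It was also run on simulated data with few changed genes and no scaling difference between groups. That run therefore does not cover the choice of scaling. Intervals are that fit's 95% intervals. The limit for a gene without reads, 3 reads, was 0.230 to 0.447 CPM and covers counting error only. The chi-square per degree of freedom between replicates was 5.13 to 37.4, more than counting noise. Members and lists were chosen with earlier results of these data known. Of 7 ratios planned, 5 needed Hspa8 or Hsp90aa1 and could not be computed, and the other pairs were added after the data were seen. Named partners are up to 4 called genes per list by adjusted p and all heat shock factors. Nearest genes are the 5 closest with mean log2 CPM of at least 3. The alternatives were other scalings, filters, weights and priors, a replicate block and each library left out. Summaries used Python 3.11.15, pandas 2.3.3, scipy 1.17.1 and matplotlib 3.10.9.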

Additional observations from a re-analysis of the deposited data

How the results depend on the processing

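Of 18 alternatives, Dnajb1 (log2 fold -2.06 to -1.16) and Hsph1 (-1.40 to -0.50) kept direction and call in all, and the members called were 3 higher and 3 lower with the replicate block and in the authors' deposited table. Deviations from the group means correlated at 0.13, -0.07 and -0.17 between libraries of the same number. Whether such libraries share a rat or a batch is not stated in the labels, and these few values cannot settle it. The replicate block gave 44 partners higher and 20 lower beside 42 and 21. Leaving out a library left 2 or 3 members higher and 3 lower. Library totals gave 802 genes higher and 6892 lower (members 0 and 7, partners 6 and 62), totals without mitochondrial genes 1151 and 6253 (members 0 and 5, partners 11 and 54), quantile normalization 1 and 6 members, median centring 13 partners lower, and a stricter filter, which tests fewer genes, 2237 genes lower. Under quantile normalization the log2 ratio changed by 0.75 for Dnajb4 over Dnajb1, -0.30 for Hsph1 over Hspa4 and -0.47 for Dnajb1 over Dnaja1; the cause was not tested. Directions turned under library totals for Hsp90ab1 (-0.40), Hspd1 (-0.36), Tcp1 (-0.41), Hspa4l (-0.082), Hspa13 (-0.28), Dnajc8 (-0.070), Dnajc21 (-0.15), Pdcl3 (-0.11), Vbp1 (-0.064) and Hsf2 (-0.0099), and under totals without mitochondrial genes for Hsp90ab1 (-0.23), Hspd1 (-0.19), Tcp1 (-0.25) and Hspa13 (-0.11). Library totals moved each log2 fold by -0.71, so smaller rises at the deposited scaling also turned there. These were Tbca (0.55), Dnaja2 (0.44), Dnaja4 (0.51), Dnajb6 (0.31), Pfdn1 (0.54) and Pfdn5 (0.48) among the genes named. Quantile normalization turned Hsp90ab1 (-0.49) and Hspa1b (0.026). Hspa4, not called, was positive with median centring (0.15), library weights (0.010), without null replicate 1 (0.026) and without shDesmin replicate 3 (0.008), and ran from -0.068 to 0.026 over the left-out libraries. Dnajb4 was positive with median centring (0.032). Low depth limits the precision of Hspa1b (24 to 82 reads a library) and Hsf2bp (1 to 22).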
